A study of Mus musculus with 14 samples.

Results

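The comparison of d3ko with d3con covers 6 of the 14 RNA-seq libraries of the series, 3 of each genotype, and asks which gene programmes Venus-sorted cells lack or keep at day 3 when they cannot make Foxa2. Of the 24054 genes listed, 13899 passed a filter on low counts and were tested. The d3con cells are Foxa2-Venus-KO/+ mouse embryonic stem (ES) cells, in which 1 allele of Foxa2 carries the nuclear fluorescent protein H2B-Venus in place of the Foxa2 coding region and the other allele is intact. The d3ko cells are Foxa2-Venus-KO/Foxa2-Venus-KO and have no intact coding region. In both groups the cells were freed of mouse embryonic fibroblasts, seeded on feeder cells that secrete Wnt3a, given 12 ng/ml Activin A for 3 days and sorted as Venus-positive, so that Venus marked cells with an active Foxa2 locus whether or not they made Foxa2. The controls thus carry a reduced dose of the gene, and no wild-type cells enter the comparison. Undifferentiated ES cells of the same genotypes, labelled as sorted Cherry-negative (d0con and d0ko with 2 libraries each), gave the starting levels. The paper states that the ko cells lack the Sox17-Cherry allele, so this label does not show that cells with Sox17 were removed. Replicates 1 and 3 of each day 3 group share a clone name and replicate 2 comes from another clone, so that each genotype rests on few clones and the p-values measure the spread between these libraries, part of which may be technical.

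Foxa2 belongs to the forkhead factors, which can bind their sites in closed chromatin and open it for other factors. In the gastrulating embryo it is made in the anterior primitive streak, whose descendants form definitive endoderm, the prechordal plate, the node and the notochord. Cells that take this route pass through a mesendoderm stage with Eomes, Mixl1 and Brachyury (T), shut down the naive pluripotency network, and then switch on Sox17 and other endoderm factors.

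The 6 libraries held 15882612 to 27278237 expected counts (estimated reads per gene, summed). Replicate 1 of either group was quantified as 75-base reads and the others as 50-base reads. The d3ko replicate 2 library stood apart from the other d3ko libraries on chromosome 8, where its genes lay lower by a median log2 of -0.43 relative to all autosomes, against -0.01 to 0.07 on each other autosome and 0.02 for chromosome 8 in d3con replicate 2. The summed level of 12 fibroblast and feeder cell markers was 90 to 555 TPM (transcript levels scaled for length and for the total of each library) in d3con and 192 to 525 TPM in d3ko, the lowest value of either group lay in replicate 2, and 0 of the 11 markers tested were called in the edgeR and DESeq2 fits below (1 at an unadjusted p under 0.05). The sum of 12 mesendoderm and endoderm markers was 10.2 to 12.7 TPM in the day 0 libraries and 1400 to 1540 TPM in d3con. In d3ko it was 298, 826 and 163 TPM in replicates 1, 2 and 3. All 3 d3ko libraries thus stood above day 0 in the sum. Of the 12 tested, 4 were called lower (Gsc, Sox17, Hhex and Foxa1) and 0 higher in the edgeR fit below. In all 3 d3ko libraries 10 of the 12 lay under the d3con mean, and 0 lay above it. Sox17 and Foxa1 were at 2.1 TPM or less in each d3ko library, with Sox17 above its day 0 range of 0.02 to 0.24 TPM. Gata4, Gata6, Eomes and Mixl1 also stood above day 0 in each. The label of endoderm cells is thus borne out only in part, and d3ko is called by its genotype below. In bulk libraries such as these, fewer cells of a type and less RNA per cell cannot be told apart.

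Foxa2 itself was at 58.6, 34.8 and 54.5 TPM in the d3con libraries and at 0.11, 0.15 and 0.19 TPM in the d3ko libraries. The d3ko values lay within the range of the day 0 libraries of both genotypes (0.07 to 0.14 TPM) or just above it, and the labels of all 6 libraries were borne out. The log2 fold change was -8.26 (SE 0.36, n = 3 each, adjusted p = 2.59e-05 in edgeR).

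A gene was called when its edgeR adjusted p was under 0.05 and its level differed by more than 2-fold. In the fit of all 10 day 0 and day 3 libraries, which share 1 estimate of the spread, 660 genes (4.75% of 13899) were higher and 488 (3.51%) were lower in d3ko. In an edgeR fit of the 6 day 3 libraries alone, 7 of 13513 genes (0.0518%) were higher and 60 (0.444%) were lower, and each of these was also called in the fit of 10. DESeq2, the tool of the study, called 726 genes (5.38% of 13497) higher and 596 (4.42%) lower on the same 6 libraries, among them 604 of the 660 and 483 of the 488. Without regard to any test, the 3 d3ko libraries all lay above the 3 d3con libraries in TPM for 11.5% of the tested genes and all below for 12.3%. The ranges did not overlap for 620 of the 660 genes called higher and for 486 of the 488 called lower. These genes were called on the same libraries, so their separation was fixed in large part by the choice. Without both replicate 2 libraries edgeR called 1521 genes (11.1%) higher and 1051 (7.68%) lower, without both replicate 1 libraries 0 and 1, and without both replicate 3 libraries 2 and 12. With replicates 1 and 3, which share a clone name, summed to 1 sample in each group, it called 0 and 1. Since most calls end in the edgeR fit of 6 libraries, a gene called in both edgeR fits is named as such below, and all other calls rest on the fit of 10.

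Genes that define endoderm were low in d3ko. Of 12 endoderm transcription factors, 7 fell, among them Sox17, Hhex, Foxa1, Foxa3, Prdm1 and Foxq1, 0 rose, and 10 had d3ko levels under every d3con library. The median log2 fold change of the list was -2.72, against 0.02 over all genes tested. Sox17, the factor most closely tied to definitive endoderm, was at 131, 62.4 and 109.8 TPM in d3con and at 2.1, 1.25 and 0.76 TPM in d3ko (log2 fold change -6.24, SE 0.54, adjusted p = 0.00226 in edgeR, and 0.0154 in the fit of 6). Foxa1, the paralogue that shares most of the DNA-binding domain with Foxa2, was at 28, 7.72 and 21.1 TPM in d3con and at 0.07, 0.13 and 0.11 TPM in d3ko (-7.52, SE 0.72, adjusted p = 0.00349 in edgeR, and 0.0154 in the fit of 6). The third paralogue, Foxa3, was at 64.4, 10.1 and 66.6 TPM in d3con and at 3.33, 1.27 and 4.47 TPM in d3ko. All 3 Foxa genes were thus low together in every d3ko library, and Foxa3 lay under its day 0 level as well (6.27 TPM in d0con and 5.45 TPM in d0ko). Prdm1, a zinc finger repressor that was called in both fits, fell from a d3con range of 20.5 to 26 TPM to 5.93 to 7.73 TPM (log2 fold change -1.71, SE 0.16, adjusted p = 0.00297 in edgeR).

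**Figure D1:**
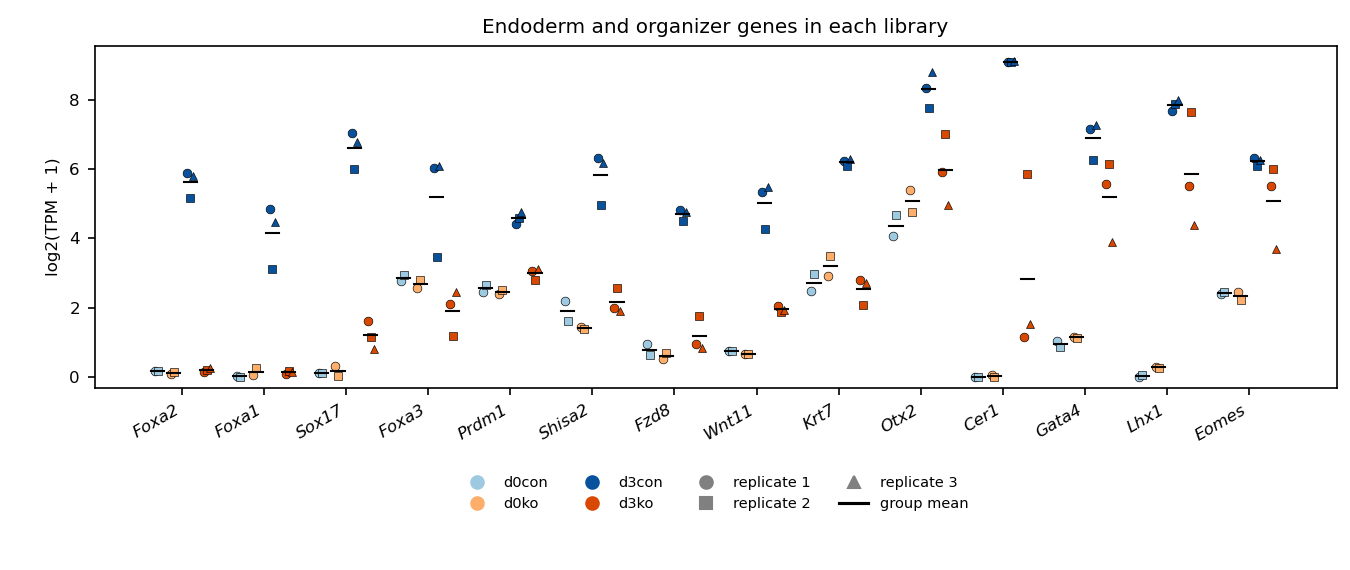
Levels of 14 endoderm and organizer genes as log2(TPM + 1) in each of the 10 libraries, coloured by group, with the replicate number as the symbol and the group mean as a bar. Foxa2 and Foxa1 lay at or near the day 0 levels in all 3 d3ko libraries and Sox17 lay above them at 0.76 to 2.1 TPM, while for Otx2, Cer1, Lhx1, Gata4 and Eomes replicate 2 was the highest of the d3ko libraries.

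For Gata4, Gata6 and Hnf4a the call depended on the fit: edgeR on 10 libraries called none of the 3, DESeq2 on 6 libraries called Gata4 and Hnf4a lower, and edgeR without replicate 2 called all 3 lower. Gata4, a zinc finger factor shared by endoderm and heart mesoderm, was at 142, 75.9 and 153 TPM in d3con and at 46.2, 69 and 13.8 TPM in d3ko (log2 fold change -1.54, SE 0.49, adjusted p = 0.0774 in edgeR). Gata6 was at 46.4, 42.6 and 50.4 TPM in d3con and at 18.3, 28.9 and 4.34 TPM in d3ko (-1.45, SE 0.52, adjusted p = 0.108 in edgeR). For both genes the groups did not overlap, d3ko replicate 2 was nearest to the controls, and every d3ko library lay above the day 0 means, which were at most 1.21 TPM. Hnf4a, a nuclear receptor of the liver and gut, differed by -4.3 on the log2 scale (SE 1.21, adjusted p = 0.0537 in edgeR), with 0 to 0.55 TPM in d3ko and 1.62 to 9.91 TPM in d3con.

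The promoters of Foxa1 and Prdm1 are shown because both fell, both were called in the 6-library fit, and both hold a forkhead motif upstream of an annotated start. Only windows that hold the motif were kept. Each start shown lies inside its gene (chr10:44437174-44528558 for Prdm1 and chr12:57540628-57548029 for Foxa1), so that the gene reaches further upstream. The motif was searched as TGTTTAC or TATTTAC on either strand in windows from 250 bases before to 50 bases after the start (RefSeq, GRCm38.p6). The 250 bases before the start are printed 5′ to 3′ along the gene, in lower case, with the motif in capitals. In both it lies on the opposite strand, so that it reads as its complement, with its first printed base at -231 in Prdm1 (chr10:44458749-44458998, minus strand) and at -141 in Foxa1 (chr12:57546112-57546361, minus strand).
Foxa1: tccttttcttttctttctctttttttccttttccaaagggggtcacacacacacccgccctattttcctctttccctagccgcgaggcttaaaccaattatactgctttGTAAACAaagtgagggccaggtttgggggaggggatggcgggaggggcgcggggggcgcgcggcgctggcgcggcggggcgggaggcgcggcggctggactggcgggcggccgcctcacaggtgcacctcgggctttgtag
Prdm1: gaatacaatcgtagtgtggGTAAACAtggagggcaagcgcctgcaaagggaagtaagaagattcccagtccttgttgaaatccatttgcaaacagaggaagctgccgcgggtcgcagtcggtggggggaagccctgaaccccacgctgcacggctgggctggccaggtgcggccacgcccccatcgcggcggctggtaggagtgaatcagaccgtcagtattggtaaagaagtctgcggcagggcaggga
Of all 11016 tested genes with such a window, 534 (4.85%) hold the motif, as do 17 of the 369 genes called lower (4.61%) and 31 of the 503 called higher (6.16%). A window was given for fewer than 80% of the tested and of the called genes, so the comparison of these shares is void. A match of letters is no evidence of binding.

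The organizer and anterior mesendoderm list, the secreted inhibitors and homeobox factors of the tissue that patterns the head, had 1 direction throughout. All 15 genes had a log2 fold change under 0, all 15 lay under the d3con mean in each d3ko library, and 11 fell (Dkk1, Gsc, Otx2, Chrd, Lefty1, Shisa2, Sfrp1, Sfrp5, Frzb, Fzd5 and Fzd8). The median was -3.08, and -2.96, -2.81 and -3.53 in d3ko replicates 1, 2 and 3. Shisa2, which holds back Wnt and Fgf receptors, was at 78.9, 30.4 and 71.1 TPM in d3con and at 2.96, 4.99 and 2.75 TPM in d3ko (log2 fold change -4.1, SE 0.43, adjusted p = 0.00438 in edgeR). The Wnt receptor gene Fzd8 was at 27.5, 21.8 and 26 TPM in d3con and at 0.95, 2.42 and 0.8 TPM in d3ko (-4.2, SE 0.44, adjusted p = 0.00438 in edgeR). Both, and the secreted Wnt antagonist gene Sfrp1 on chromosome 8 (71 to 220 TPM in d3con and 21.3 to 25 TPM in d3ko), were called in both fits. In all 3 genes each d3ko library lay under every control.

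Other organizer genes differed in degree between the d3ko libraries, and 2 of those described here, Cer1 and Lhx1, did not pass. Cer1, a secreted antagonist of Nodal, Bmp and Wnt, was at 545, 544 and 548 TPM in d3con and at 1.22, 56.4 and 1.87 TPM in d3ko, and at most 0.02 TPM on average at day 0. The groups were far apart, but the spread within d3ko left the log2 fold change of -4.82 with an SE of 1.28 and an edgeR adjusted p of 0.0501, while DESeq2 on 6 libraries called it lower. The homeobox gene Otx2, needed for the anterior axis, was at 323, 216 and 444 TPM in d3con and at 59.1, 129 and 29.9 TPM in d3ko (-2.19, SE 0.49, adjusted p = 0.0257 in edgeR). Gsc, a homeobox gene of the organizer, was at 166, 119.8 and 138 TPM in d3con and at 27.2, 52.7 and 9.09 TPM in d3ko (-2.27, SE 0.51, adjusted p = 0.0252 in edgeR). Lhx1, a LIM homeobox gene of the anterior mesendoderm, was at 202, 234 and 254 TPM in d3con and at 44.5, 201 and 19.8 TPM in d3ko and did not pass (-1.4, SE 0.66, adjusted p = 0.203 in edgeR). In all 4 genes replicate 2 was the highest of the d3ko libraries, and for Lhx1 it nearly reached the controls. Dkk1, a Wnt antagonist, was lowest in replicate 2 among the controls: it was at 385, 44.5 and 313 TPM in d3con and at 14.4, 9.06 and 2.84 TPM in d3ko (-4.85, SE 0.84, adjusted p = 0.0131 in edgeR).

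Among 12 node and notochord genes 9 were tested and 2 fell. Noto, a homeobox gene of the node, was at 1.46, 5.4 and 1.52 TPM in d3con and at 0.07, 0 and 0 TPM in d3ko (log2 fold change -6.71, SE 1.16, adjusted p = 0.0173 in edgeR). Shh, the hedgehog ligand of the notochord, had 0.76, 1.46 and 0.69 TPM in d3con and no read in any d3ko library, which puts it at least 28.1-fold lower when a floor of 3 reads over the 3 libraries is used (adjusted p = 0.0207 in edgeR). Both levels are low, and both were highest in d3con replicate 2. The cilium factor gene Foxj1 was at 57.5 TPM in d3con replicate 2 and at 4.38 to 6.07 TPM in the other controls, with overlapping groups (log2 fold change -2.5, SE 1.02, adjusted p = 0.147 in edgeR).

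By the rule of the largest changes with at least 5 TPM and no overlap, the 12 largest falls were Mirg, Proc, Rian, Spink3, Kcnk16, Gm5771, Prss1, Kif12, Pga5, Foxa2, Slc34a2 and Ambp. Spink3, a trypsin inhibitor, was at 1289, 70.9 and 631 TPM in d3con and at 2.15, 0.54 and 0.88 TPM in d3ko (log2 fold change -9.18, SE 1.24, adjusted p = 0.00922 in edgeR). Pga5, a pepsinogen, was at 1145, 164 and 924 TPM in d3con and at 3.51, 0.44 and 3.23 TPM in d3ko (-8.27, SE 0.96, adjusted p = 0.00557 in edgeR). Prss1, a trypsinogen, was at 109, 22.3 and 78.6 TPM in d3con and at 0, 0.48 and 0 TPM in d3ko, and the related Gm5771 was at 18.9 to 79.2 TPM and at 0 to 0.44 TPM. Trypsinogen genes are near copies of one another and can share reads, so their split is uncertain. These 4 were called in both fits, and in each the lowest control was d3con replicate 2. Of 24 genes of plasma proteins and lipoprotein assembly, 14 were tested and 4 fell (Apob, Proc, Spink3 and F10). Apoa2 (apolipoprotein A-II) and Trf (transferrin) rose, from d3con ranges of 1.66 to 2.83 TPM and 0.18 to 0.61 TPM to 7.07 to 21.8 TPM and 1.68 to 12.6 TPM, with day 0 means of 25.3 and 22.2 TPM for Apoa2 and of 6.88 and 11.1 TPM for Trf.

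The epithelial list was partly lost. Of 17 tested genes of junctions and keratins 8 fell (Cldn6, Cldn7, Ocln, F11r, Krt7, Krt8, Krt18 and Esrp1) and Cldn4 rose. Krt7, a keratin of simple epithelia, was the most even of them, at 74.4, 66.7 and 77.4 TPM in d3con and at 6.02, 3.22 and 5.5 TPM in d3ko (log2 fold change -3.89, SE 0.3, adjusted p = 0.00226 in edgeR, and 0.0139 in the fit of 6). The keratin pair Krt8 and Krt18 fell from 700.4 to 1207 TPM and 671 to 1298 TPM to 71.1 to 269 TPM and 53.6 to 180.4 TPM. Of the claudins, which seal tight junctions, Cldn6 was at 732, 353 and 690 TPM in d3con and at 61, 73.2 and 118 TPM in d3ko and was called in both fits (-2.82, SE 0.34, adjusted p = 0.00713 in edgeR). Cldn4 moved in the opposite direction, from 20.8 to 32.5 TPM to 43.1 to 130 TPM. E-cadherin (Cdh1, on chromosome 8) was at 455, 483 and 598 TPM in d3con and at 214, 217 and 371 TPM in d3ko, a difference of -0.93 on the log2 scale (SE 0.21, adjusted p = 0.0242 in edgeR) that lay under the 2-fold threshold. Epcam, an adhesion protein of epithelia and ES cells, was at 182 to 202 TPM and at 119 to 246 TPM with overlap. Both Cdh1 and Epcam were above 100 TPM in each d3ko library.

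Basement membrane genes moved both ways, with 3 of 16 tested lower and 3 higher. The laminin chains Lama5, Lamb1 and Lamc1 fell, with Lamb1 at 145, 89.2 and 167 TPM in d3con and at 38.7, 57 and 26.3 TPM in d3ko (log2 fold change -1.73, SE 0.3, adjusted p = 0.0133 in edgeR). Fibronectin (Fn1), nidogen 2 (Nid2) and collagen XVIII (Col18a1) rose. Fn1 was at 98.2, 226 and 107 TPM in d3con and at 497, 531 and 301 TPM in d3ko (1.63, SE 0.33, adjusted p = 0.0202 in edgeR), above the day 0 means of 89.9 and 112 TPM. Collagen IV had no call, and its chain gene Col4a1, on chromosome 8, was at 120.8, 77 and 20.2 TPM in d3ko against 120.3, 74.6 and 122 TPM in d3con, so that 1 library differed from the rest.

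Of 14 migration and surface receptor genes 6 fell (Ackr3, Kit, Kitl, Trh, Cd24a and Ephb2). The peptide hormone gene Trh, which was called in both fits, was at 4242, 3012 and 4403 TPM in d3con and at 718, 625 and 1199 TPM in d3ko (log2 fold change -2.2, SE 0.38, adjusted p = 0.013 in edgeR), and the day 0 libraries spanned 618 to 1630 TPM. Kit, a receptor of definitive endoderm, fell from 77.7 to 141.6 TPM to 30.9 to 59.9 TPM, and its ligand gene Kitl from 4.49 to 16.9 TPM to 0.38 to 1.95 TPM. Cxcr4, the chemokine receptor used to sort endoderm, was at 49.6, 28 and 52.8 TPM in d3con and at 11.5, 31.7 and 3.51 TPM in d3ko. It did not pass (-1.51, SE 0.64, adjusted p = 0.159 in edgeR), and the replicate 2 libraries were level with each other.

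Primitive streak factors were present in d3ko. Of 11 tested 0 were called in either direction in edgeR on 10 or on 6 libraries, in DESeq2 on 6, or in edgeR without replicate 2, and 0 had an unadjusted p under 0.05 in either of the first 2 fits. Log2 fold changes ran from -0.9 (Eomes, SE 0.45) to 1.57 (Mesp2, SE 0.76), so that differences of more than 2-fold in single genes cannot be set aside. Eomes, the T-box factor at the head of the endoderm programme, was at 78.3, 67.3 and 75.9 TPM in d3con, at 44.8, 63.2 and 12.1 TPM in d3ko and at 4.38 and 4.12 TPM on average in d0con and d0ko. Mixl1, a homeobox gene of the streak, was at 44.1, 60 and 52.7 TPM in d3con and at 75, 104.7 and 32.5 TPM in d3ko, from 0.19 to 0.38 TPM at day 0. T was at 11.4, 131 and 15.5 TPM in d3con and at 13.7, 212 and 55.7 TPM in d3ko. All 3 d3ko libraries stood above day 0 for Eomes and Mixl1, replicate 2 was the highest for T in both genotypes, and replicate 3 was the lowest for Eomes and Mixl1. By list median the d3ko libraries stood at -0.66, 0.6 and -0.68 relative to d3con.

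Of 15 tested genes of lateral, cardiac and blood mesoderm 1 rose, Tbx3, and 0 fell. Tbx3, a T-box gene of heart mesoderm that ES cells also express, was at 6.67, 4.68 and 5.57 TPM in d3con and at 63.8, 20.1 and 79.7 TPM in d3ko (log2 fold change 3.27, SE 0.48, adjusted p = 0.0107 in edgeR), above the day 0 means of 17.5 and 28.9 TPM in 2 of the 3 libraries. Etv2, a factor of the blood and endothelial lineage, was at 81.5, 40.5 and 15.7 TPM in d3ko and 18.2 to 24.9 TPM in d3con, and Hand1, of lateral mesoderm, at 1.53, 24.8 and 4.25 TPM in d3ko and 0.68, 8.16 and 4.17 TPM in d3con. Neither passed, and the highest d3ko library differed between the 2 genes. In the cadherin and mesenchymal transition list 1 of 12 fell, the membrane protease gene Mmp14. N-cadherin (Cdh2) was at 78.8, 68.3 and 129 TPM in d3con and at 34.7, 57 and 10.5 TPM in d3ko and did not pass (-1.44, SE 0.52, adjusted p = 0.109 in edgeR), and Vim, of the mesenchymal cytoskeleton, had a log2 fold change of 0.35 (SE 0.3).

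Naive pluripotency genes were high in d3ko. Of 20 naive factors 17 rose, 0 fell, and the median log2 fold change was 4.19. Esrrb, a nuclear receptor of the naive network, was at 1.92, 2.09 and 1.69 TPM in d3con and at 50, 10.5 and 85.4 TPM in d3ko (log2 fold change 4.68, SE 0.65, adjusted p = 0.00938 in edgeR). Its day 0 means were 57 and 58.1 TPM. Tfcp2l1 was at 2.68 to 3.9 TPM in d3con and at 69.7, 11.8 and 70.6 TPM in d3ko, and Fgf4 at 2.01 to 2.22 TPM in d3con and at 71, 10.8 and 124 TPM in d3ko. In each of these the controls were tight, replicates 1 and 3 of d3ko stood near or above day 0 levels and replicate 2 stood between. The list median by library was 4.62, 1.68 and 4.64. In the edgeR fit of the 6 libraries 0 of the 20 were called (adjusted p of 0.0515 or more), in DESeq2 on the same 6 libraries 18 were, and in edgeR 18 were without replicate 2 and 0 without replicate 1 or without replicate 3. The 3 without a call were Klf5, Stat3 and Socs3, and the 2 latter act in the LIF pathway in many cell types.

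The core pluripotency factors were mixed. Of 12, 3 rose (Sox2, Utf1 and Foxd3) and Sall4 fell. Sox2 was at 4.99, 7.42 and 2.71 TPM in d3con and at 89.3, 14.7 and 86.1 TPM in d3ko (log2 fold change 3.66, SE 0.64, adjusted p = 0.0136 in edgeR). Sall4, a zinc finger factor of ES cells and mesendoderm, was at 289, 316 and 395 TPM in d3con and at 122, 195 and 136 TPM in d3ko (-1.14, SE 0.19, adjusted p = 0.0123 in edgeR), and these levels lay under the day 0 means of 238 and 269 TPM. Pou5f1 was at 63.5, 319 and 59.7 TPM in d3con and at 522.5, 501 and 944 TPM in d3ko. The d3con replicate 2 library was high, the groups did not overlap, and the gene did not pass in the fit of 10. It was called in 8 of 20 alternatives, with log2 fold changes of 1.42 to 3.58 over all of them. DESeq2 on 6 libraries, edgeR with another scaling and edgeR without replicate 2 were among those that called it higher. The ES cell genes that fell below day 0 with Sall4 included the de novo methyltransferase gene Dnmt3b, at 343 to 400.4 TPM in d3con, 43.6, 125 and 80.3 TPM in d3ko and 203 to 218 TPM on average at day 0 (-2.17, SE 0.31, adjusted p = 0.00985 in edgeR). Its cofactor gene Dnmt3l moved the other way, from 9.35, 6.16 and 4.98 TPM in d3con to 208, 49.5 and 270.4 TPM in d3ko, and was called in both fits (4.68, SE 0.6, adjusted p = 0.00726 in edgeR). The oxidases Tet1 and Tet2 rose, by 1.6 and 2.51 on the log2 scale (SE 0.24 and 0.46). Within the 10 genes of DNA methylation d3ko was thus below both states for Dnmt3b and between them for Dnmt3l.

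**Figure D2:**
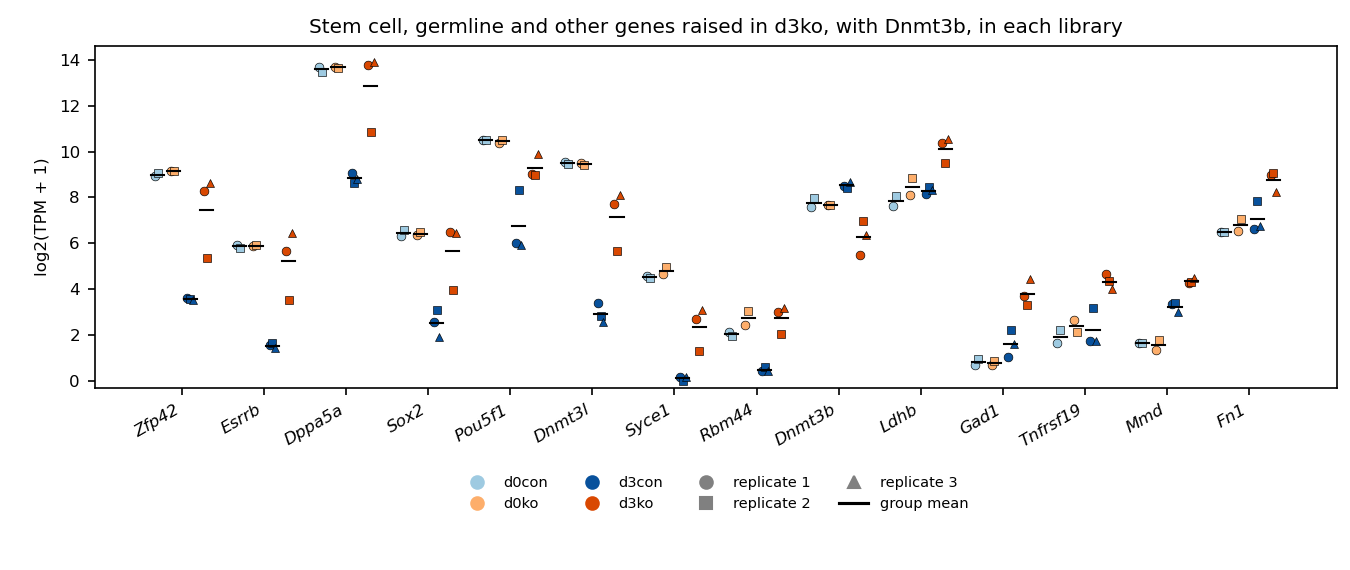
Levels of 14 genes as log2(TPM + 1) in each of the 10 libraries, coloured by group, with the replicate number as the symbol and the group mean as a bar. Zfp42, Esrrb, Dppa5a and Sox2 lay above every control in all 3 d3ko libraries, with replicate 2 the lowest of them, Dnmt3b lay under all other groups, and Ldhb, Gad1, Tnfrsf19, Mmd and Fn1 lay above all other groups.

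Germline genes rose with the naive factors. Of 17 germline and meiosis genes tested 15 rose and 0 fell, with a median log2 fold change of 3.81 and medians of 3.22, 1.53 and 4.4 in the 3 d3ko libraries. Syce1, of the synaptonemal complex, was at 0.12, 0 and 0.11 TPM in d3con and at 5.56, 1.43 and 7.52 TPM in d3ko (log2 fold change 5.8, SE 0.79, adjusted p = 0.00927 in edgeR), and Tdrd12, of the piRNA pathway, at 2.19 to 3.2 TPM in d3con and at 46.1, 9.07 and 59.2 TPM in d3ko (3.81, SE 0.61, adjusted p = 0.0109 in edgeR). The day 0 means were 22.2 and 27 TPM for Syce1 and 50.5 and 72.2 TPM for Tdrd12, so that both were already expressed in the undifferentiated cells. Outside the list Rbm44 and Rnf17, both known from germ cells, were called in both fits, with Rbm44 at 0.35 to 0.51 TPM in d3con and 3.06 to 8 TPM in d3ko.

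Cdx1, a homeobox gene of the posterior body and a direct Wnt target, was at 0.2, 1.15 and 0.18 TPM in d3con and at 15.4, 3.68 and 48.6 TPM in d3ko (log2 fold change 5.49, SE 1.06, adjusted p = 0.0168 in edgeR). Its day 0 means were 7.55 and 5.16 TPM, so that replicates 1 and 3 lay above both states. By the rule of the largest changes Cdx1 was among the 12 largest rises, with BC021614, Zfp600, 2210409E12Rik, Mobp, Trpm1, 1700061G19Rik, Gm7325, Ubap1l, AU018091, 1700029P11Rik and Jam2, and in each of these replicate 2 was the lowest d3ko library. Gm7325, which encodes the fusion peptide myomixer, was at 1.24 to 2.76 TPM in d3con, at 79.6, 16.9 and 128 TPM in d3ko and at 48.8 to 60.2 TPM at day 0. Zfp600 belongs to a family of near-identical zinc finger genes that can share reads, and its level is uncertain. Of 11 formative and early neural factors tested 1 rose, Pax6, at 0.2 to 0.35 TPM. Fgf5, a marker of the primed epiblast, was at 403, 435 and 485 TPM in d3con and at 39.3, 223 and 16.3 TPM in d3ko, without overlap and without a call (-2.27, SE 0.79, adjusted p = 0.0993 in edgeR), and again d3ko replicate 2 was nearest to the controls.

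In each of 7 signalling pathways, with 12 to 27 genes tested, 1 or 2 genes rose and 0 to 2 fell. Over all genes tested 4.75% rose and 3.51% fell, so such small counts are not read as a change of a pathway as a whole. In the Nodal and Activin pathway, which drives endoderm, 2 of 18 tested genes rose and 2 fell. The ligand gene Nodal was at 102.6, 107 and 140 TPM in d3con and at 70.1, 70.2 and 76.7 TPM in d3ko, a difference of -0.69 on the log2 scale (SE 0.18, adjusted p = 0.0441 in edgeR) within the 2-fold threshold. The feedback inhibitor gene Lefty2 was at 877, 511 and 1302 TPM in d3con and at 172, 210.3 and 204 TPM in d3ko and was called in both fits (-2.2, SE 0.3, adjusted p = 0.00938 in edgeR). Lefty1 fell alike, from 475 to 699 TPM to 76.9 to 182 TPM, and both stood near their day 0 levels (101.9 to 169 TPM for Lefty1 and 181 to 258 TPM for Lefty2). The Nodal co-receptor gene Cfc1 was at 436, 273 and 453 TPM in d3con and at 27.2, 81 and 8 TPM in d3ko (-3.34, SE 0.73, adjusted p = 0.0237 in edgeR). The inhibitory Smad7 and the convertase gene Pcsk6 rose, toward day 0 levels.

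In the Wnt pathway 1 of 27 tested genes rose and 2 fell. Wnt11, a ligand of the non-canonical branch, was at 39.6, 18.2 and 43.3 TPM in d3con and at 3.16, 2.69 and 2.82 TPM in d3ko (log2 fold change -3.56, SE 0.33, adjusted p = 0.00297 in edgeR) and was called in both fits. Its d3ko levels were even across the libraries and above the day 0 means of 0.7 and 0.59 TPM. Tcf7l2, a nuclear effector of canonical Wnt signals, was at 82.8, 44.1 and 103.4 TPM in d3con and at 7.73, 14.1 and 5.08 TPM in d3ko (-3.11, SE 0.42, adjusted p = 0.00907 in edgeR). The organizer list adds the secreted Wnt antagonists Sfrp1, Sfrp5, Frzb and Dkk1 and the receptors Fzd5 and Fzd8, which also fell. Notum, a secreted Wnt deacylase, rose from 0.14 to 0.72 TPM to 0.56 to 6.15 TPM with overlapping groups.

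In the Bmp pathway the ligand gene Bmp4 rose, from 8.3, 9.34 and 4.16 TPM in d3con to 55.1, 18.5 and 49.2 TPM in d3ko (log2 fold change 2.49, SE 0.44, adjusted p = 0.0137 in edgeR), while the effector gene Smad1, on chromosome 8, and the target gene Id3 fell (-1.39 and -1.15, SE 0.27 and 0.3), out of 17 tested. Ligand and target thus moved in opposite directions. In the Fgf pathway, where 19 genes were tested, the feedback genes Spry2 and Etv5 rose (1.26 and 2.11, SE 0.32 and 0.44), and the ligand gene Fgf8 was at 501, 702 and 505 TPM in d3con and at 111, 466 and 67.1 TPM in d3ko without a call (-1.41, SE 0.6, adjusted p = 0.16 in edgeR). In the Notch pathway the receptors Notch1 and Notch4 rose and the target genes Hes1 and Hey1 fell, out of 14. Hes1 was at 139, 134 and 111 TPM in d3con and at 47.9, 82.6 and 30.4 TPM in d3ko (-1.27, SE 0.32, adjusted p = 0.0356 in edgeR). Of 12 Hedgehog genes Gli1 rose, at 1.87 to 6.37 TPM in d3ko. Of 13 retinoic acid genes the synthesis enzyme gene Aldh1a2 rose and the receptors Rarb and Rxra fell, with Rxra at 7.43 to 8.78 TPM in d3con and 2.09 to 3.38 TPM in d3ko (-1.57, SE 0.22, adjusted p = 0.00973 in edgeR).

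The noncoding RNAs of the imprinted Dlk1 to Dio3 locus were almost absent from d3ko. These RNAs are read from the maternal chromosome, in a cluster on chromosome 12. Meg3 was at 145, 87.8 and 154 TPM in d3con and at 2.01, 0.98 and 0.07 TPM in d3ko (log2 fold change -7.2, SE 0.89, adjusted p = 0.00726 in edgeR). Rian was at 7.94 to 15.4 TPM in d3con and at 0.06, 0 and 0 TPM in d3ko, and Mirg, at 5.07 to 6.94 TPM in d3con, had no read in any d3ko library and so was at least 82.5-fold lower. All 3 were called in both fits. Rtl1, which lies opposite a maternal antisense RNA whose reads it may share, fell as well, from 0.5 TPM or less. Dlk1 and Dio3, which are read from the paternal chromosome, stayed at 3.13 TPM or less in all 6 libraries and did not pass. The maternal RNAs were already low in the undifferentiated ko cells. Meg3 was at 36 and 44 TPM in d0con and at 0.31 and 2.21 TPM in d0ko. This day 0 log2 fold change of -5.12 (SE 0.98) had an edgeR adjusted p of 1.0 in the fit of 10 libraries. The difference at day 3 therefore cannot be told apart from one that the ko lines carried before differentiation. Of 18 other imprinted genes Grb10 and Nnat fell and Plagl1 rose. Grb10, an adaptor that restrains growth signals, was at 833, 412 and 1323 TPM in d3con and at 128, 220.5 and 113 TPM in d3ko, and its day 0 means were 28.8 and 30.8 TPM.

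Few genes of general programmes were called. Of 20 oxidative phosphorylation subunits and of 10 reference genes 0 were called in edgeR on 10 or on 6 libraries or in DESeq2 on 6 (4 and 2 at an unadjusted edgeR p under 0.05), and log2 fold changes ran from -0.21 (Ndufa9) to 0.6 (Uqcrc1) and from -0.42 (Actb) to 0.79 (Hprt). Of 18 cholesterol synthesis genes 0 were called in the same 3 fits (10 at an unadjusted edgeR p under 0.05), 17 had a log2 fold change under 0 and the median was -0.5, with -0.75, -0.04 and -0.79 in the 3 d3ko libraries. Without replicate 2, 4 of them were called lower in edgeR. Of 22 cell cycle genes 1 rose (Ccnd3), 19 had a log2 fold change above 0 and the median was 0.29. Of 14 genes of the p53 pathway Cdkn1a rose and Perp and Btg2 fell, while 12 had a log2 fold change above 0. The median of this list was 0.52, with 0.4, 0.12 and 0.88 in the 3 d3ko libraries. Without replicate 2, 6 of the 14 were called higher and 2 lower in edgeR. In glycolysis the glucose transporter gene Slc2a3 fell, from 2350 to 3276 TPM to 763 to 1454 TPM (-1.23, SE 0.22, adjusted p = 0.0133 in edgeR), and Pfkp rose, out of 18. The Polycomb subunit genes Eed and Cbx7 rose, out of 18 chromatin genes.

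**Figure D3:**
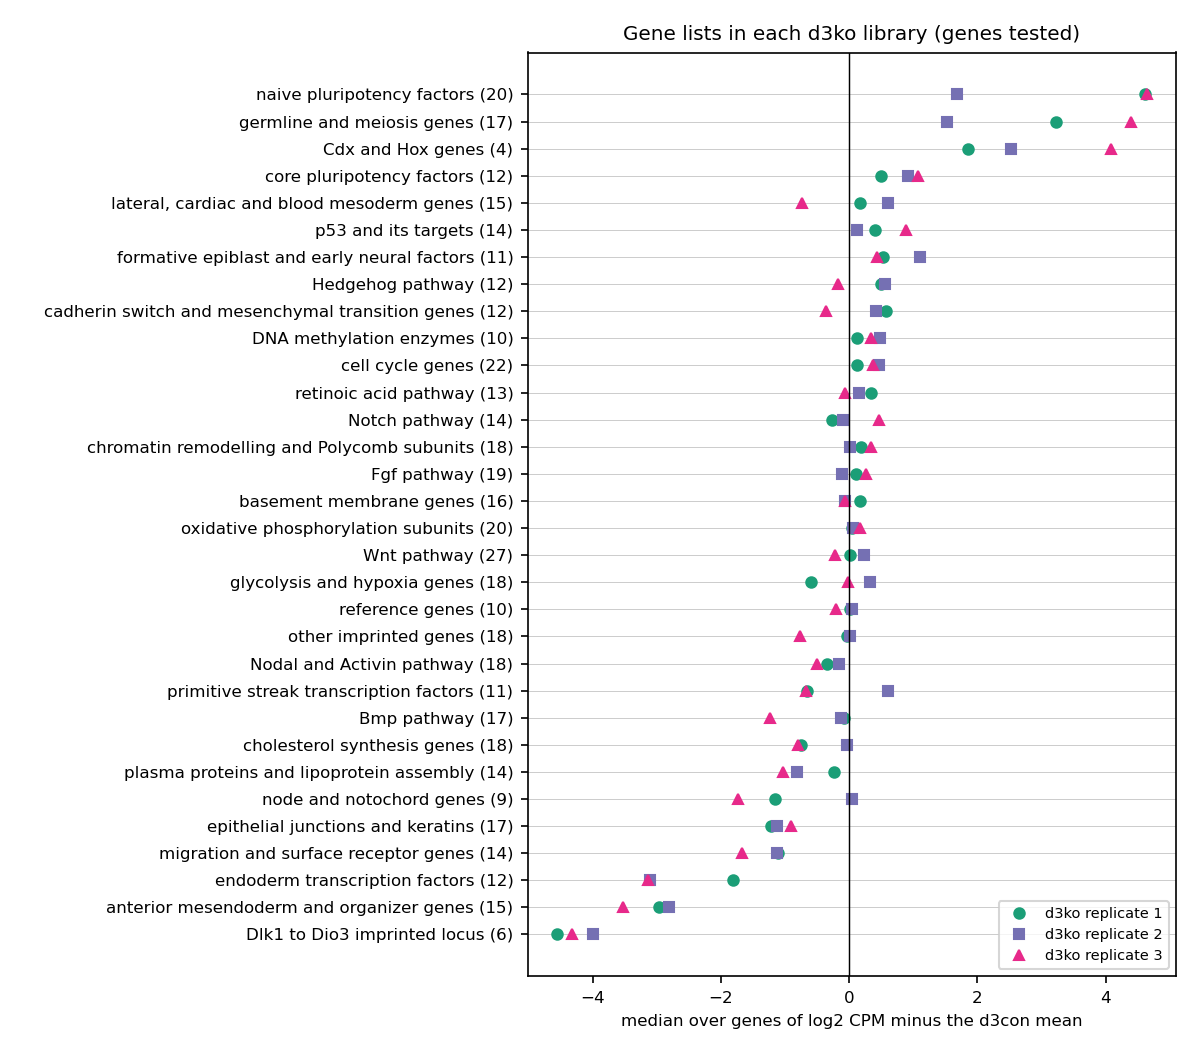
Median over the tested genes of each of 32 lists of the log2 CPM in a d3ko library minus the d3con mean, with 1 symbol per d3ko library and the number of genes tested in brackets. The endoderm factor list lay between -3.14 and -1.81 and the organizer list between -3.53 and -2.81, the naive and germline lists lay between 1.53 and 4.64 with replicate 2 the lowest, and the primitive streak, node and lateral mesoderm lists differed in sign between libraries.

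A call in the fit of 6 libraries needs a small spread within the groups, so how even these genes are was fixed in part by their choice. Relative to the d3con mean, the 60 falls had medians of -3.52, -3.12 and -3.42 in d3ko replicates 1, 2 and 3 on the log2 scale and the 7 rises had 3.19, 2.56 and 3.93, beside -2.24, -1.74 and -2.33 for the 488 falls and 2.76, 1.13 and 3.24 for the 660 rises. Relative to the d3con library of the same number, the 60 falls had medians of -3.69, -2.3 and -3.6. By the lowest adjusted p in the fit of 6 libraries, the first 12 were Foxa2, Krt7, Foxa1, Eya2, Mmp15, Sox17, Rian, Ctxn1, Elmo1, Prdm1, Wnt11 and Tox3, of which Mmp15, Ctxn1 and Tox3 lie on chromosome 8. Eya2, a transcriptional coactivator and phosphatase, was at 18.1, 7.76 and 14.6 TPM in d3con and at 0.15, 0.21 and 0.21 TPM in d3ko (log2 fold change -6.17, SE 0.61, adjusted p = 0.00365 in edgeR). Elmo1, which helps to activate Rac in moving cells, was at 45.2, 50.3 and 70.7 TPM in d3con and at 9.6, 14.2 and 9.2 TPM in d3ko (-2.33, SE 0.26, adjusted p = 0.00535 in edgeR). Mmp15, a membrane-bound matrix protease, was at 34.9, 26.4 and 30.7 TPM in d3con and at 4.33, 6.14 and 4.93 TPM in d3ko (-2.59, SE 0.21, adjusted p = 0.00226 in edgeR). Among the d3ko libraries replicate 2 was the highest for Mmp15, the lowest for Ctxn1 (28.2, 25.4 and 26.3 TPM) and between the others for Tox3 (0.86, 0.84 and 0.5 TPM). The 7 rises were Rbm44, Rnf17, Dnmt3l, Ldhb, Pla2g1b, Cabp1 and Dnah8. Of the 488 falls 42 lay on chromosome 8 (8.61%, against 5.44% of the tested genes), and of the rises 19 (2.89%). Without the d3ko replicate 2 library 41 of the 42 were also called, as were 478 of all 488 falls (98%). Leaving out that library raised the falls to 969 and kept nearly all calls, so the count of 41 says little about chromosome 8. The part of the lower chromosome 8 level of this library in the falls was not tested.

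To set how far each d3ko library had gone, the level of every gene that fell and that was at least 8-fold higher in d3con than in both day 0 groups was placed on a scale with the d0ko mean at 0 and the d3con mean at 1 (log2 CPM, counts scaled for library size). These genes were chosen on the same contrast, so the positions are a description. Over the 181 genes the median position was 0.26, 0.44 and 0.17 in replicates 1, 2 and 3, and replicate 2 was the highest for 123 of them. In 45 genes all 3 libraries lay under 0.25, at or near the d0ko level or below it: Spink3, for example, had positions of -0.59, -0.89 and -0.79. Those with the highest control level were Pga5, Spink3, Cd55, Tnnt1, Prss1, Gm5771, Gata1, Foxa2, Cpn1 and Akr1c19, and the group also held Foxa1, Eya2, the homeobox gene Irx5, the pancreatic and gut factor gene Rfx6, Noto and Shh. Cd55, a membrane inhibitor of complement, was at 197, 41.8 and 217 TPM in d3con and at 6.6, 10.3 and 7.98 TPM in d3ko. Gata1, known as a blood factor, was at 62.7, 23.2 and 74.6 TPM in d3con and at 2.64, 5.13 and 0.85 TPM in d3ko. In 10 genes replicate 2 lay over 0.5 and the other libraries under 0.25: Emb, Otx2, Tmem184a, Slc7a8, Irx3, Lbh, Syt13, Rab37, Sel1l3 and Fhdc1. Emb, a cell surface glycoprotein, was at 1793, 1316 and 2196 TPM in d3con and at 190.3, 715 and 192 TPM in d3ko. The remaining 126 lay between or were graded in another way.

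**Figure D4:**
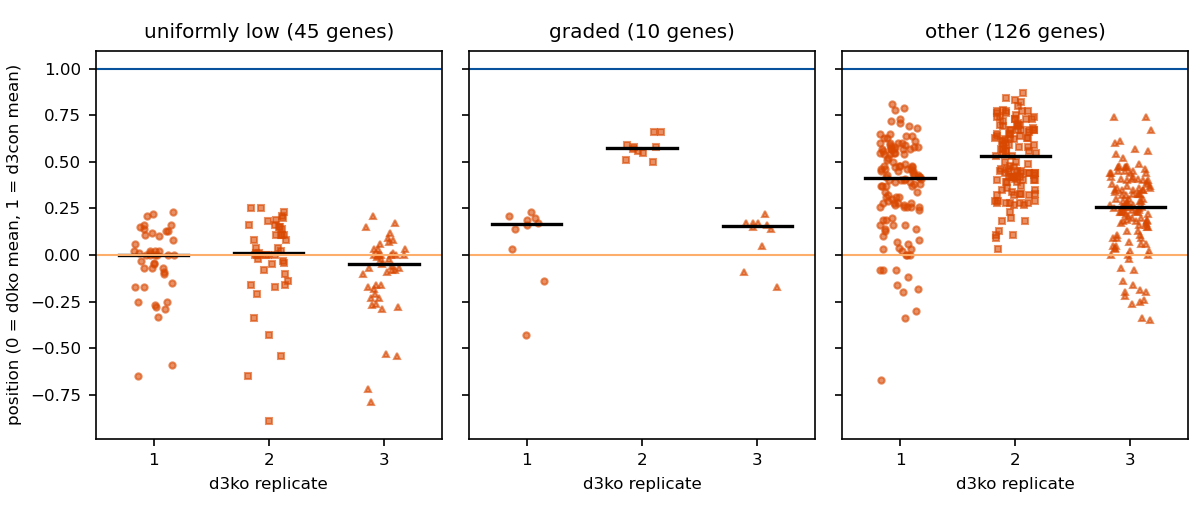
Position of each d3ko library between the d0ko mean (0) and the d3con mean (1) for the 181 fallen genes that d3con raised at least 8-fold over day 0, with 1 point per gene and the median as a bar. The uniformly low genes scatter about 0 in all 3 libraries, the graded genes are split from the rest by replicate 2 by definition, and in the remaining 126 genes replicate 2 had the highest median (0.53) and replicate 3 the lowest (0.26).

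Replicate 2 comes from other clones than replicates 1 and 3, so the 1521 and 1051 genes called in edgeR without both replicate 2 libraries (of 13689 tested) were read in a pair of libraries that did not choose them. In the replicate 2 pair, d3ko minus d3con, 1154 of the 1521 (75.9%) had the same sign and 366 (24.1%) differed by more than 2-fold in that direction, against 51.8% and 5.52% of all genes tested. Of the 1051, 891 (84.8%) had the same sign and 366 (34.8%) differed by more than 2-fold, against 48.2% and 5.26% of all genes. The median log2 difference of the 1521 was 2.25 in replicates 1 and 3 and 0.39 in replicate 2, and that of the 1051 was -1.89 and -0.67. Both shares lay above those of all genes. The medians of replicates 1 and 3 come from the fit that chose the genes and are raised in size by that choice, so that smaller medians in replicate 2 are fixed in part. What differs between clones and what differs between replicate numbers cannot be told apart here.

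**Figure D5:**
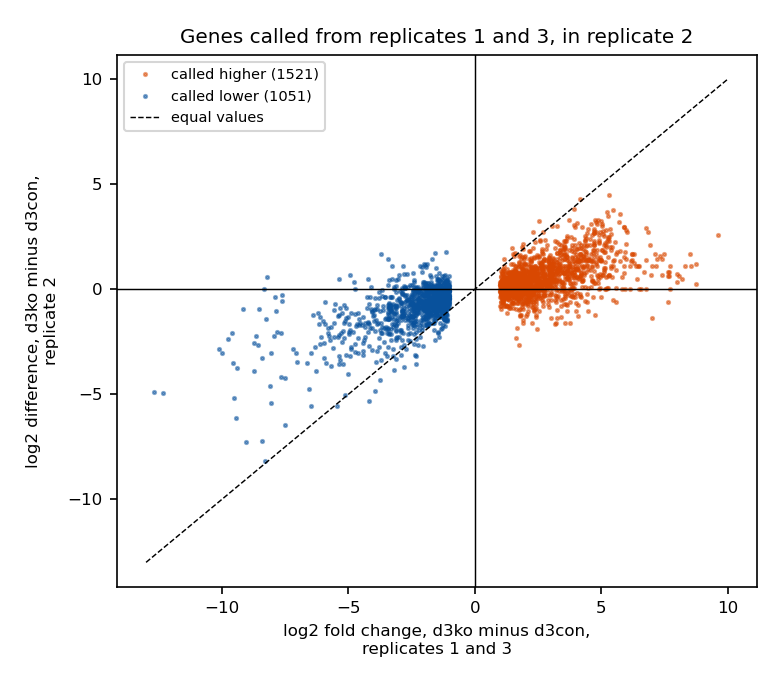
Log2 difference of d3ko and d3con in the replicate 2 pair against the log2 fold change in replicates 1 and 3, with 1 point per gene called in the latter, orange for higher and blue for lower. Most points lie on the same side of 0 on both axes and nearer to 0 than the dashed line of equal values, with 75.9% of the genes called higher above 0 and 84.8% of those called lower under 0.

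Most genes that rose were at a level between d3con and the ES cells, but some went beyond both. The mean d3ko TPM lay above that of d3con and at or under that of d0ko in 433 of the 660 rises, and it lay above both day 0 means in 221. Of the 401 rises with at least 5 TPM in d3ko, 35 had every d3ko library above every d3con and day 0 library. The share of all tested genes that meet this condition was not counted, so the 35 are a description only. The 10 with the widest gap included Ccdc160, Gad1, Fam159a, A2m, Mmd, Tnfrsf19, Des, Ldhb and Adhfe1. Ldhb, a lactate dehydrogenase subunit, was at 279, 345 and 320.1 TPM in d3con, at 1304, 724 and 1484 TPM in d3ko and at 231 and 366 TPM on average at day 0 (log2 fold change 1.9, SE 0.29, adjusted p = 0.0107 in edgeR, called in both fits). Gad1, which makes the transmitter GABA, was at 1.02, 3.69 and 2.08 TPM in d3con and at 11.9, 8.74 and 20.4 TPM in d3ko (2.62, SE 0.48, adjusted p = 0.0151 in edgeR). Tnfrsf19, a receptor known as a Wnt target, was at 2.32, 7.96 and 2.35 TPM in d3con and at 24.2, 19.2 and 14.9 TPM in d3ko (2.22, SE 0.5, adjusted p = 0.0261 in edgeR). Mmd was at 6.92 to 9.38 TPM in d3con, 17.9, 18.7 and 21.3 TPM in d3ko and at most 2.4 TPM at day 0.

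A further set, chosen after the values were seen, lay below both states: 42 of the falls had at least 5 TPM in d3con and every d3ko library under every d3con and day 0 library. Here too the share over all tested genes was not counted. With Foxa3 the 42 falls included the SRY-box gene Sox21, the neuroendocrine granule gene Chga, the bHLH gene Ascl2 and the zinc finger gene Ovol2. Chga was at 146, 47.1 and 107 TPM in d3con, at 4.68, 6.01 and 12.5 TPM in d3ko and at 24.1 and 25.6 TPM on average at day 0 (log2 fold change -3.7, SE 0.49, adjusted p = 0.00849 in edgeR, called in both fits). Ovol2, a guardian of the epithelial state, was at 44.9, 13.8 and 41.6 TPM in d3con, at 3.48, 2.61 and 6.35 TPM in d3ko and at 6.72 to 8.91 TPM at day 0 (-2.93, SE 0.5, adjusted p = 0.0126 in edgeR).

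Markers of other cell types were read beside these programmes. Of 6 trophoblast markers tested Ascl2 and Krt7 fell, and the summed level of the list was 143 to 175 TPM in d3con and 111 to 114 TPM in d3ko. Of 10 extraembryonic endoderm markers tested 0 were called in edgeR on 10 or 6 libraries or in DESeq2 on 6 (1 at an unadjusted p under 0.05 in the fit of 10), with sums of 39.5 to 68.8 TPM and 45.7 to 64.4 TPM. Neural markers summed to 3.18 to 7.07 TPM in d3con and 7.2 to 27.8 TPM in d3ko, under the 106 to 135 TPM of day 0, and Pax6 and Neurod1 rose at 5.4 TPM or less. Among 7 blood and endothelial markers tested Pecam1, which ES cells also carry, rose from 1.08 to 2.9 TPM to 50.3, 6.71 and 78.7 TPM, and Gata1 fell, and the sums overlapped (29 to 85.3 TPM and 16.5 to 82.1 TPM). Markers of the cleavage-stage-like state of ES cells summed to 12.5 TPM or less in all 6 libraries, and Gm6763 among them rose. The part of cells that had stayed undifferentiated in the pluripotency and germline rises was not tested.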

How the data were processed

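RNA of sorted cells was made into cDNA with a low-input kit and sequenced. The authors aligned the reads with STAR and estimated expected counts and TPM with RSEM on mm10 (GRCm38), and versions are not given in the sources used here. From the deposited expected counts, rounded to whole numbers, edgeR 4.0.16 (R 4.3.3) fitted the 10 libraries of d0con, d0ko, d3con and d3ko after TMM scaling, with genes of at least 1 CPM in 2 libraries, and tested d3ko against d3con by the quasi-likelihood test with Benjamini-Hochberg adjustment. The SE is the log2 fold change divided by the root of F. The deposited TPM give levels and list sums, and genes with no read in a group have a bound at 3 reads. The other 4 libraries, of cells with inducible Foxa2, were not used. Alternatives were edgeR and DESeq2 1.42.0 on 6 libraries, DESeq2 on 10, limma 3.58.1 on log2(TPM + 1), other filters, scalings and thresholds, and left-out libraries. On simulated d3ko and d3con counts of 13899 genes with 200 changed 4-fold, the fit of 10 recovered 71.5%, and that of 6, on 13513 genes, recovered 63%. False calls among the unchanged genes were 4 and 9. The simulated libraries were drawn independently around 1 mean per gene, with no day difference and no shared clone. The recovered shares therefore do not tell how many real changes these fits find.

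The deviations of same-numbered libraries had correlations of 0.54, 0.294 and -0.0139 in replicates 1, 2 and 3. The main fit took no pairs, and so leaves out what the libraries of replicates 1 and 2 share by number. The members and lists were chosen with earlier results of these data known. Genes were named by fixed rules: Foxa2, members of the lists, the 12 largest changes per direction with at least 5 TPM and no overlap, the 12 lowest adjusted p called in both edgeR fits, the 10 above both states with the widest gap, and up to 10 by position between the states. Settings such as the 8-fold, 0.25 and 0.5 limits of the positions belong to these rules. Intervals for counting error were not computed for estimated counts. A few genes of these lists are not reported here.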

Additional observations from a re-analysis of the deposited data

How the results depend on the processing

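The counts of 660 higher and 488 lower genes depended on the fit, the threshold and the libraries. They became 7 and 60 on 6 libraries, 997 and 681 with DESeq2 on 10 libraries, 154 and 130 when tested against a 2-fold change, 18 and 67 at an adjusted p under 0.01, 403 and 474 with limma on TPM, and 0 and 1 with replicates 1 and 3 summed to 1 sample. Leaving out libraries gave 0 to 1521 higher and 1 to 1051 lower genes, with d3con replicate 1 (76 and 143 without it) and replicate 3 (9 and 71), d3ko replicate 1 (258 and 237), replicate 3 (249 and 270) and replicate 2 (1280 and 969) each moving them by over 1.5 times in at least 1 direction. DESeq2 on 6 libraries (726 and 596), another scaling (671 and 490), no filter (730 and 542), a mean count of at least 50 (523 and 416) and leaving out d3con replicate 2 (718 and 571) stayed within 1.5 times. The scaling moved the median of all genes by -0.01. A block on the replicate number gave 415 and 401. The con libraries of replicates 1 and 2 correlated best with their own number, and that of replicate 3 with the ko library of replicate 1 (0.0653). The numbers were not taken as pairs in the main fit, although those of replicates 1 and 2 deviated together.

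Of 161 named genes that were called, 0 changed sign under any alternative. Sign changes were seen in 4 named genes without a call: without d3ko replicate 2 in T (-0.57), Hand1 (-0.54), Dlk1 (-0.01) and Dio3 (-1.78), and in Dio3 also without d3con replicate 2 (-0.09), without both replicate 2 libraries (-2.11) and with the block (-0.28). With libraries left out T ranged from -0.57 to 2.78, Hand1 from -0.54 to 2.08, Dlk1 from -0.01 to 1.36 and Dio3 from -2.11 to 1.0. The causes were not tested. With 3 libraries from few clones in each group, a gene without a call is not shown to be equal.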
